A study of Rattus norvegicus with 6 samples.

Results

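Rat star strands, the passenger strands of microRNA (miRNA) hairpins, were read on a custom miRNA microarray of rat kidney. Of the 5560 probes on the array, 679 carry a rat name, and 241 of these are star probes, chosen by a rat name that starts with rno- and ends in an asterisk. The probe named without the asterisk was taken as the partner, which gave 205 pairs, and the other 36 star probes had none under that name. The rule used names only, but it was set with earlier results of these data known. Kidneys came from 6 male Big Blue transgenic rats on the Fisher 344 background, 1 array per rat, and all 6 carried the Big Blue transgene, a bacterial reporter used to score mutations. Replicates 13, 14 and 15 are labelled as untreated controls. The sodium salt of aristolochic acid (AA), a plant toxin that damages the kidney, went to replicates 19, 20 and 21 by gavage, with 5 doses of 10.0 mg/kg in each of 12 weeks, begun when the rats were 6 weeks old. They were killed 1 day after the last dose, and whole kidney tissue was used, so a change in the cells present and a change in RNA per cell cannot be told apart.

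A miRNA hairpin is cut by Drosha and Dicer into a short duplex, of which a single strand is usually kept by an Argonaute protein and pairs with mRNAs through its seed, the bases from position 2 to 8. The opposite strand is mostly discarded, and was given the star in older catalogues when it was the rarer of the pair in the tissues then sequenced. For some hairpins both strands are loaded, and which arm prevails can differ between tissues.

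The star strands on which the results turn are shown here 5′ to 3′ as the array targets them, with the seed in capitals. The first set holds star strands that were measured on every array while their partner stayed under the detection threshold, each followed by its partner for comparison.
rno-miR-423*: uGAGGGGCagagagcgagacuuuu
rno-miR-423: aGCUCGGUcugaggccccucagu
rno-miR-455*: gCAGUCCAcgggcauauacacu
rno-miR-455: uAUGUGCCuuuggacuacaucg
rno-miR-483*: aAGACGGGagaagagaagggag
rno-miR-483: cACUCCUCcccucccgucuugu
rno-miR-466c*: uAUACAUGcacacauacacac
rno-miR-466c: uGUGAUGUgugcauguacaug
rno-miR-196c*: aCAACAACaccaaaccaccuga
rno-miR-196c: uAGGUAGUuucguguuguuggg
rno-miR-133b*: gCUGGUCAaacggaaccaagu
rno-miR-133b: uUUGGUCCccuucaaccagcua
In RefSeq on GRCr8 the star of miR-423 is the 5p strand, at chr10:62412317-62412340 on the minus strand inside Nsrp1, and the star of miR-483 is the 5p strand, at chr1:207247903-207247924 on the minus strand inside Igf2. The star of miR-455 is the 3p strand, at chr5:81704881-81704902 on the plus strand inside Col27a1. The star of miR-196c is the 3p strand, at chr10:81727598-81727619 on the plus strand, in no other gene of that annotation. The star of miR-133b is the 5p strand, at chr9:30594592-30594612 on the plus strand inside the non-coding RNA gene LOC120094648.

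The next set holds the other miR-466 stars, which share long runs of alternating bases with miR-466c*, and the star strands of the miR-34 family with the miR-34a strand that differed between the groups. The stars of miR-34b and miR-34c have the same seed, which differs from that of miR-34a*.
rno-miR-466b-1*: aUACAUACacacacacauacac
rno-miR-466b-2*: aUAUACAUacacacauacaca
rno-miR-34a*: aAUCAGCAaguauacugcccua
rno-miR-34b*: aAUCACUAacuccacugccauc
rno-miR-34c*: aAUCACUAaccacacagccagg
rno-miR-34a: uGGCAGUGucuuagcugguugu
The 3 miR-466 stars lie inside Sfmbt2 on the minus strand, at chr17:72945512-72945533 for miR-466b-1*, chr17:72942475-72942495 for miR-466b-2* and chr17:72927610-72927630 for miR-466c*. Whether the probes of these 3 stars bind each other's targets was not tested, so their readings are not counted as independent. The miR-34b* and miR-34c* strands lie at chr8:60306621-60306642 and chr8:60306101-60306122, on the minus strand inside Hoatz, and miR-34a* at chr5:165816015-165816036 on the plus strand inside the non-coding RNA gene LOC103692514.

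The last set holds pairs in which both strands were measured on every array, together with miR-210* and the star of miR-30e, which has the seed of miR-30a*.
rno-let-7d*: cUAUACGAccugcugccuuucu
rno-let-7d: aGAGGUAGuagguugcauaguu
rno-miR-30a*: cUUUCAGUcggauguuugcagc
rno-miR-30a: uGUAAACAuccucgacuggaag
rno-miR-30e*: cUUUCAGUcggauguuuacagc
rno-miR-195*: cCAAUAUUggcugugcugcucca
rno-miR-195: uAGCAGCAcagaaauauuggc
rno-miR-328a*: gGGGGGCAggaggggcuca
rno-miR-328a: cUGGCCCUcucugcccuuccgu
rno-miR-210*: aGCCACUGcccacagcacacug
rno-miR-210: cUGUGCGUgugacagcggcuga
Of the 241 star targets, 98 equal a mature 5p strand and 123 a mature 3p strand in RefSeq on GRCr8. A uracil at the first base, which Argonaute proteins favour, was present in 41 star targets (17.01%) and in 108 of the 205 partner targets (52.7%).

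Not all arrays were alike. AA replicate 20 was the dimmest, with a mean scanner signal of 149 above empty spots, against 263 to 484 on the other arrays. Its correlation with the other arrays over all tested probes was between 0.818 and 0.867, against 0.937 to 0.988 among those, as a description across probes that share an array. The liver list held 1 marker, miR-122, which read 15191 on AA replicate 20, the other 5 arrays lying between 8.17 and 48.5. The muscle list, summed over 3 markers, read 603 there and 85.1 to 523 elsewhere, with miR-1 and miR-133a under 32 on all 6 arrays. Of the 6 kidney tubule markers, 5 reached 32 on all 6 arrays, and miR-204 on none. Their sum on AA replicate 20, 5901, lay inside the range of the other arrays, while single markers lay outside it on both sides. The miR-194 probe read 264 there and 432 to 802 elsewhere, and miR-200a read 862 there and 285 to 587 elsewhere. The endothelial marker miR-126 read 602, against 1210 to 1646. Of the 13 markers of all lists that reached 32 on any array, 5 were highest and 5 lowest on AA replicate 20. The changes between the groups are therefore given with and without that array, and the part of these markers and of its brightness in the results was not tested.

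Few star strands were detected at the threshold of 32 used in the study. Detection was read at that threshold in the authors' deposited normalized intensity. Of the 241 star probes, 39 (16.2%) were at 32 or more on 1 array or more, 16 (6.64%) were so on all 6, and 202 on none. Of the 205 partner probes, the same held for 92 (44.9%) and 60 (29.3%). The other 233 rat probes lay between these, at 49 (21.0%) and 25 (10.7%), and so did all 5559 probes of the deposited table, at 20.3% and 10.2%. Star probes of other species without a rat name were detected about as rarely as the rat stars, with 14.9% of 818 on 1 array or more and 38 (4.65%) on all 6.

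**Figure D1:**
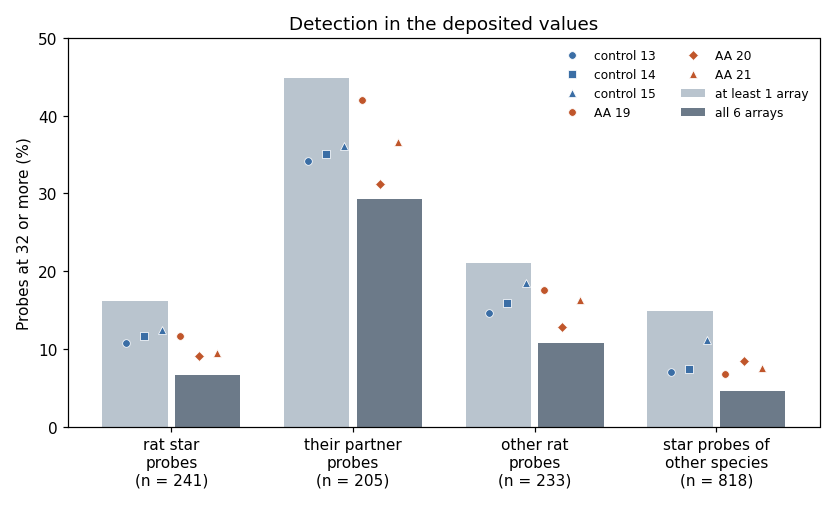
Share of probes at a deposited intensity of 32 or more, in percent, for the rat star probes, their partner probes, the other rat probes and the star probes of other species. Light bars give the share on at least 1 array, dark bars the share on all 6, and points the share on each array. Rat star probes stood at 16.2% and 6.64%, and their partners at 44.9% and 29.3%.

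The number of star probes detected was similar in both groups of rats. Control replicates 13, 14 and 15 had 26, 28 and 30, and AA replicates 19, 20 and 21 had 28, 22 and 23, so the groups overlapped. Beside the 16 stars found on all arrays, 14 reached 32 on 2 to 5 arrays and 9 on a single array. That array was control replicate 15 for 4 of the 9 and AA replicate 19 for 3. Among the 202 stars never detected, the median of the highest value was 4.73, and the highest was 31.8, for miR-200b*.

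Most bright partners had no detected star. Of 60 pairs whose partner reached 32 on all 6 arrays, 13 stars (21.7%) were detected at all and 5 (8.33%) on every array. Of 113 pairs whose partner reached it on no array, 14 (12.4%) and 6 (5.31%) did so. Among 25 pairs with a mean partner intensity of 1000 or more, the star was under 32 on all 6 arrays in 21. The other 4 (16%) were detected, close to the 16.2% of all 241 star probes, so a bright partner did not set these pairs apart. The let-7e partner had a mean of 15891 and its star no value over 22.2. The partners miR-26a, a strand found in most tissues, and miR-21, which rises in many injured tissues, had means of 13143 and 3209, and their stars no value over 4.35 and 6.97. The mean of miR-122 passed 1000 through AA replicate 20 alone, and miR-122* had no value over 14.2 on any array, that one included.

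Of all 241 rat stars, 39 (16.2%) were detected, and no family count given here was tested against that share. By family, the stars of the miRNAs that mark kidney epithelium (7 members) and leukocytes (4 members) were under 32 on every array, as were those of the miR-181 (6 members), miR-23/27/24 (6 members) and vascular (3 members) groups. The miR-30 family, whose partners are abundant in kidney epithelium, had 3 of 5 stars detected. The let-7 family had 2 of 9, the miR-15/16 kin 3 of 6 and the kin of miR-10 and miR-99b 2 of 5. In the miR-17 cluster and its kin 1 of 10 stars was detected, in the miR-29 family 1 of 4, among the p53-linked hairpins 2 of 5, and in the miR-26 family and in that of miR-221 and miR-222, with 2 members each, 0. Of 24 stars listed for the imprinted Dlk1-Dio3 cluster, 1 was detected, miR-485*. The list left out some of the cluster's hairpins. By position, 35 rat stars lay within the span of the listed ones on GRCr8, chr6:134298129-134579793, and 2 of these were detected, miR-485* and miR-758*. Of 14 stars listed for miRNAs known from other tissues, 1 was detected, miR-138-1*, and it read 33.4 on control replicate 15, 38.0 on AA replicate 20 and under 32 on the other arrays. That list did not hold miR-133b*, added here after its values were seen, which was at 32 or more on all 6 arrays.

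The highest intensities among the 16 stars detected on all arrays were those of the rodent miR-466 cluster. Values are given in the order of replicates 13, 14 and 15 for control and 19, 20 and 21 for AA. In deposited intensity, miR-466b-1* read 7085, 8102 and 7365 in control rats against 5759.5, 19354 and 8942 in AA rats. The miR-466c* probe read 5698, 6315 and 5944 in control and 4684, 17516 and 6865 in AA. The miR-466b-2* probe read 1984, 2502 and 1996 in control and 1503, 11226 and 2039.5 in AA. On all 3 probes AA replicate 20 was the highest array and AA replicate 19 the lowest.

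Next came the stars of hairpins with more familiar partners. The miR-483* strand, from the Igf2 locus, read 982, 986 and 642 in control and 782, 6042 and 654 in AA. The miR-210* strand, whose partner is induced by low oxygen, read 331, 629 and 469 in control and 264, 5861 and 556 in AA. The miR-196c* strand, of a family that sits in the Hox clusters, read 319, 389 and 484.5 in control and 135, 2491 and 438 in AA. These again had their highest value on AA replicate 20 and their lowest on AA replicate 19 or, for miR-483*, on control replicate 15.

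The pattern on that array continued in dimmer stars. The miR-34c* strand, whose partner is a target of p53, read 140.8, 224 and 278 in control and 100.5, 1079.7 and 199.7 in AA. The miR-133b* strand, whose partner is best known from muscle, read 91.95, 84.2 and 251 in control and 50.4, 2221 and 224 in AA. The miR-328a* strand read 339.9, 622 and 343 in control and 282, 700.2 and 191.6 in AA, a narrower spread. In all, 9 of the 16 stars (56.3%) were highest on AA replicate 20, by 1.13 to 9.31 times the next array. Of the 550 other probes at 32 or more on all 6 arrays, 190 (34.5%) were highest there. The 9 include miR-466b-1*, miR-466b-2* and miR-466c*, whose binding to each other's targets was not tested, so the 9 are not independent readings. Over all tested probes the shares lay closer, with 13 of 39 stars (33.3%) and 289 of 1092 others (26.5%). In scanner signal above the empty spots, before normalization between arrays, 1 of the 9 was highest there, miR-133b*, at 316 against 105.9 to 263 on the other arrays. The 9 star targets held a median of 9.09% uracil (0% to 19.0%), and the other 7 a median of 30.4% (18.2% to 36.4%). Over the 39 detected stars the ranges overlapped. The 13 highest on AA replicate 20 held a median of 13.6% (0% to 45.5%), and the other 26 a median of 28.9% (9.52% to 40.9%). The part of base composition in these values was not tested.

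Of the other 7 stars, 4 had their lowest value on AA replicate 20, namely miR-455*, miR-423*, miR-30a* and miR-151*, and 3 lay within the range of the other arrays there. Of the 550 other probes, 196 (35.6%) were lowest on that array. The let-7d* strand read 433.9, 563 and 733 in control and 322.2, 450.8 and 476 in AA. The miR-455* strand, from inside the collagen gene Col27a1, read 242, 213.6 and 379.2 in control and 214.7, 47.6 and 203 in AA. The miR-423* strand read 198, 156 and 261 in control and 211, 89.2 and 284 in AA. The groups overlapped for each of these stars. The miR-195* strand, whose partner belongs to the miR-15/16 family that restrains the cell cycle, read 79.4, 74.8 and 319.9 in control and 55.3, 145.7 and 108 in AA. The miR-30a* strand read 142.1, 171 and 109 in control and 131, 87.6 and 132 in AA, and miR-30c-2* read 36.1, 35.0 and 43.6 in control and 41.5, 39.5 and 47.6 in AA. For miR-151*, control values were 142.3, 123.9 and 247 and AA values 134, 106.1 and 141.6. A high value on control replicate 15 set the range of miR-195* and miR-151*.

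**Figure D2:**
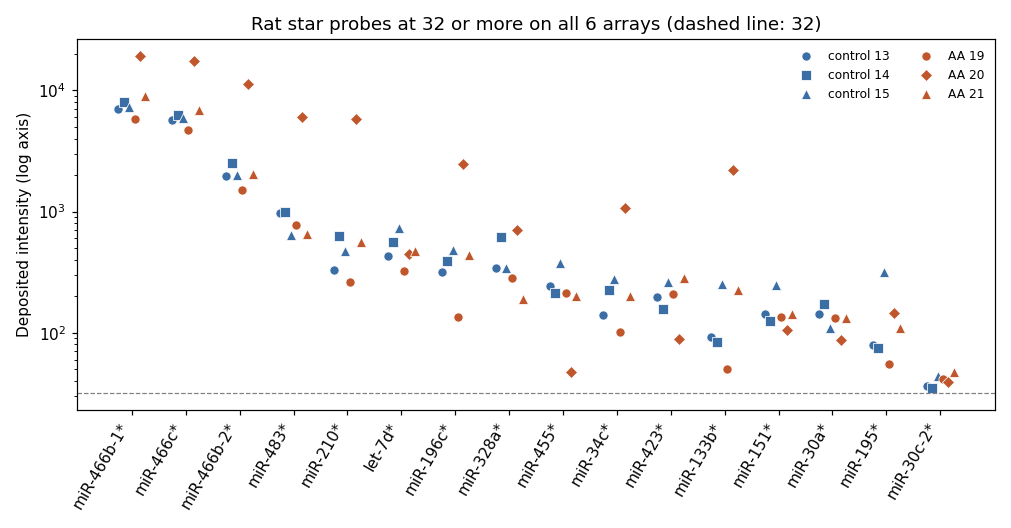
Deposited normalized intensity, on a log axis, of the 16 rat star probes at 32 or more on all 6 arrays, with 1 point per array (blue for control, orange for AA). On AA replicate 20, shown by diamonds, 9 stars had their highest value, as high as 19354 for miR-466b-1*, while miR-455* had its lowest, 47.6.

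Probes for the same strand with a few bases more or fewer gave a further reading. There were 17 such probes for 15 of the 39 detected stars, and for 14 of them the number of arrays at 32 or more differed by at most 1 from that of the rat probe. Of the 14 variants tested between the groups, 8 changed in the direction of the rat probe and 6 in the other. A miR-133b* probe named for mouse, 1 base longer, read 2193 on AA replicate 20 and 42.4 to 235 elsewhere, close to the rat probe. A longer mouse probe for miR-328a* read 568 on AA replicate 20 and 96.4 to 185 elsewhere, with a log2 change between the groups of 0.40 where the rat probe had -0.33. Neither change passed the test. The miR-423* variant read 208, 186 and 286 in control and 243, 144.3 and 352 in AA. Such probes read the same RNA on the same array, so they are no replicates. For miR-365*, miR-10b* and miR-152* the variant stayed under 32 on all 6 arrays, although the rat probes reached it on 3, 4 and 1 arrays. The miR-322* variant went the other way, and reached 32 on all 6 arrays where the rat probe did on 2. Detection of those 4 stars thus depended on the probe. The order of the arrays did so for miR-195* and miR-30a*. The miR-195* variant was highest on AA replicate 20, at 159, and read 152 on control replicate 15, where the rat probe was highest. A variant of miR-30a* read 240 on AA replicate 20 and 213 to 270 elsewhere, whereas the rat probe was lowest on that array.

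The ratio of star to partner was taken on each array from the deposited values, with 32 in place of any value under it, so that a ratio with a strand under 32 is a bound. It compares the signals of 2 probes that may bind with different strength, and is no ratio of molecules. For pairs with the partner at 32 or more, the median log2 ratio, with such bounds, was -3.38, -3.13 and -3.27 in control (70, 72 and 74 pairs). In AA it was -3.09, -3.97 and -3.63 (86, 64 and 75 pairs), in the same order of replicates. The star was above the partner in 1 to 3 of these pairs on each array. Within these pairs the median star read under its partner, but a star under 32 could not read above its partner by this choice of pairs. Pairs with the star alone at 32 or more were left out of the median. They numbered 13, 13 and 16 in control and 10, 13 and 11 in AA. In 47 pairs the partner was at 32 or more on all arrays and the star on none, and in 99 neither strand reached 32 on any array.

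Both strands were at 32 or more on all 6 arrays in 5 pairs. The let-7d star was far under its partner, with a log2 ratio of -5.48, -5.28 and -5.21 in control and -6.31, -5.62 and -5.77 in AA. The miR-30a star stood at -3.72, -3.16 and -4.03 in control and -3.91, -2.33 and -3.90 in AA, where AA replicate 20 had the dimmest partner, 439 against 1532 to 1980 on the other arrays. The miR-151 star stood between -2.10 and -1.13. The miR-195 star stood at -2.55, -2.95 and -0.0096 in control and at -3.10, -2.51 and -2.62 in AA. On control replicate 15 the rat miR-195* probe was thus level with its partner, at a log2 ratio near 0. A variant probe for that star, 1 base shorter, read 152 there against 320 for the rat probe, so the level depended on the probe. The miR-328a strands had no fixed order: the log2 ratio was 0.54, 1.93 and -0.86 in control and 0.76, 2.55 and -0.74 in AA, with the star above the partner on 4 of 6 arrays.

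In 6 pairs the star was at 32 or more and the partner under 32 on all 6 arrays. The difference was greatest in miR-466c, where the log2 ratio was at least 7.19 to 9.10, depending on the array. The bound ran from 4.33 to 7.56 for miR-483 and from 2.07 to 6.28 for miR-196c, highest on AA replicate 20 in both. It ran from 0.66 to 6.12 for miR-133b, with that array again the highest and the other arrays between 0.66 and 2.97. For miR-455 it ran from 0.57 to 3.57 and for miR-423 from 1.479 to 3.15, where AA replicate 20 gave the lowest value.

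The names of these strands follow older counts in other samples, and the star of the miR-423 hairpin is miR-423-5p under the current name. In 8 further pairs the star reached 32 on 1 array or more and no array gave a partner above it, namely miR-210, miR-34c, miR-34b, miR-140, miR-32, miR-485, miR-758 and miR-503. Where both strands were under 32 their order carries no information, which was the case on 5 arrays for miR-503, 3 for miR-34b, 2 for miR-32, 1 each for miR-140, miR-485 and miR-758, and none for miR-210 and miR-34c. The miR-210 partner read 6.28 to 57.9, and reached 32 on AA replicate 21 only, where the log2 ratio was 3.26. The miR-34c partner reached 32 on AA replicate 19 only, at 40.3, where the log2 ratio was 1.32. The miR-140 hairpin lies inside Wwp2, and its star read 66.4, 44.2 and 127.9 in control and 129.9, 28.5 and 142.3 in AA, while its partner read no more than 1.79. The miR-758* strand read 81.7, 81.9 and 90.4 in control and 27.9, 415 and 100.5 in AA, again highest on AA replicate 20. The miR-485* strand read 44.4, 51.3 and 78.4 in control and 28.2, 108.9 and 44.6 in AA. The miR-32* strand, from inside Tmem245, read 39.2, 42.1 and 23.4 in control and 50.1, 83.3 and 29.5 in AA, and the groups of both overlapped. The miR-503* strand reached 32 on control replicate 15 alone, at 36.4.

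**Figure D3:**
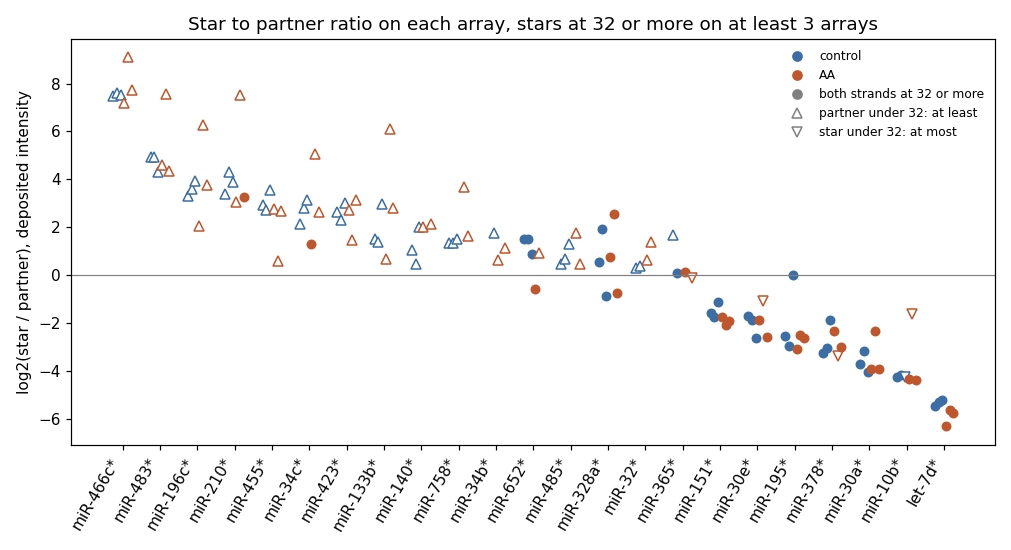
The log2 ratio of star to partner in deposited intensity on each array (blue for control, orange for AA), for the 23 pairs whose star reached 32 on at least 3 arrays. Filled points had both strands at 32 or more, open upward triangles are lower bounds where the partner was under 32, and open downward triangles are upper bounds where the star was. The let-7d pair was lowest, between -6.31 and -5.21, and the miR-466c pair highest, at least 7.19 to 9.10.

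The comparison of AA with control asked whether any star strand changed with treatment. None passed. Of the 1132 probes tested across the array, 2 (0.177%) passed the threshold of 0.05 after adjustment in limma, and of the 39 star probes tested 0 did. At an unadjusted p under 0.05 there were 56 probes (4.95%) across the array and 0 stars. Array quality weights gave 4 of 39 stars at that level, when 21.5% of all probes reached it. Of the 18 alternative settings, 5 gave 1 star each (cyclic loess, the methods' t-test, the deposited values, and leaving out control replicate 15 or AA replicate 19), and 22 of 241 stars reached it without a filter on dim probes, beside 8.83% of all probes. Of the 39 stars, 16 were higher and 23 lower in AA, with a median log2 change of -0.080, and 45.8% of all tested probes were higher, with a median of -0.053. That count moved with the scaling of the arrays: 9 of 39 stars were higher with median scaling and 6 without normalization. The median over all tested probes moved as well, to -0.26 and -0.32, and that of the stars was -0.26 and -0.33. Without AA replicate 20, 14 of the 39 were higher, against 49.1% of all probes tested without it. Of the 39, 0 passed then, and 0 had an unadjusted p under 0.05, against 7.55% of those probes. The count also moved with the filter. Of the 26 stars at 32 or more on at least 3 arrays 13 were higher (median 0.033), beside 47.9% of all such probes. Of the 16 on all 6 arrays 9 were higher (median 0.20). Without AA replicate 20 these counts were 9 and 4, with medians of -0.18 and -0.20. With all 6 arrays, the adjusted p in limma of the 39 stars ran from 0.885 to 0.965, and the standard errors (SE) from 0.23 to 0.84 on the log2 scale.

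The 5 largest rises among stars at 32 or more on at least 3 arrays all rested on AA replicate 20. The normalized log2 signal of miR-133b* averaged 7.78 ± 0.64 over the control rats and 8.77 ± 1.78 over the AA rats (SD, n = 3), a change of 0.99 (SE 0.84). Without AA replicate 20 the change was 0.034. For miR-210* the change was 0.75 (SE 0.77), and -0.19 without that array. For miR-483* it was 0.58 (SE 0.63), for miR-758* 0.46 (SE 0.55) and for miR-466b-2* 0.44 (SE 0.60), and without that array -0.21, -0.19 and -0.27. Of the 5, only miR-133b* thus kept a change above 0 without it. The liver marker miR-122 was high on the same array, as given above.

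None of the 5 largest falls passed either. The miR-455* strand changed most, by -0.79 (SE 0.47), from 8.47 ± 0.41 in control to 7.68 ± 0.87 in AA (SD, n = 3), and by -0.32 without AA replicate 20. The miR-652* strand changed by -0.49 (SE 0.29), and by -0.72 without that array (adjusted p = 0.602 in limma). In deposited intensity it read 105.5, 106.5 and 60.4 in control and 44.3, 60.3 and 22.4 in AA. The highest AA value of miR-652*, 60.3, was level with the lowest control value, 60.4, and the groups overlapped in the normalized signal. The miR-365* strand changed by -0.58 (SE 0.34), and by -0.60 without AA replicate 20, but by -0.32 without control replicate 13, -0.91 without control replicate 15 and -1.46 in the deposited values. The miR-30e* strand, which shares its seed with miR-30a*, changed by -0.40 (SE 0.40) and by -0.073 without it, and let-7d* by -0.36 (SE 0.31) and by -0.31 without it. With any 1 array left out, the change ran from -1.07 to -0.32 for miR-455*, -0.72 to -0.34 for miR-652*, -0.69 to -0.073 for miR-30e* and -0.55 to -0.15 for let-7d*.

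The groups did not overlap in the normalized log2 signal for 2 of the 39 stars (5.13%), against 113 of all tested probes (9.98%). For miR-30c-2* all AA arrays were above all controls, as for 4.42% of tested probes, with 6.76 ± 0.03 in control and 6.92 ± 0.06 in AA (SD, n = 3), a change of 0.16 (SE 0.23). In the deposited values of miR-30c-2* the groups overlapped. For miR-28*, named after its values were seen, all AA arrays were below all controls, as for 5.57% of tested probes, with a change of -0.23 (SE 0.24), and it reached 32 on control replicate 14 alone, at 34.5. The miR-152* probe, tested for a reading of 88.7 on control replicate 15, was not well above background on any AA array, so its AA level is only a bound.

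**Figure D4:**
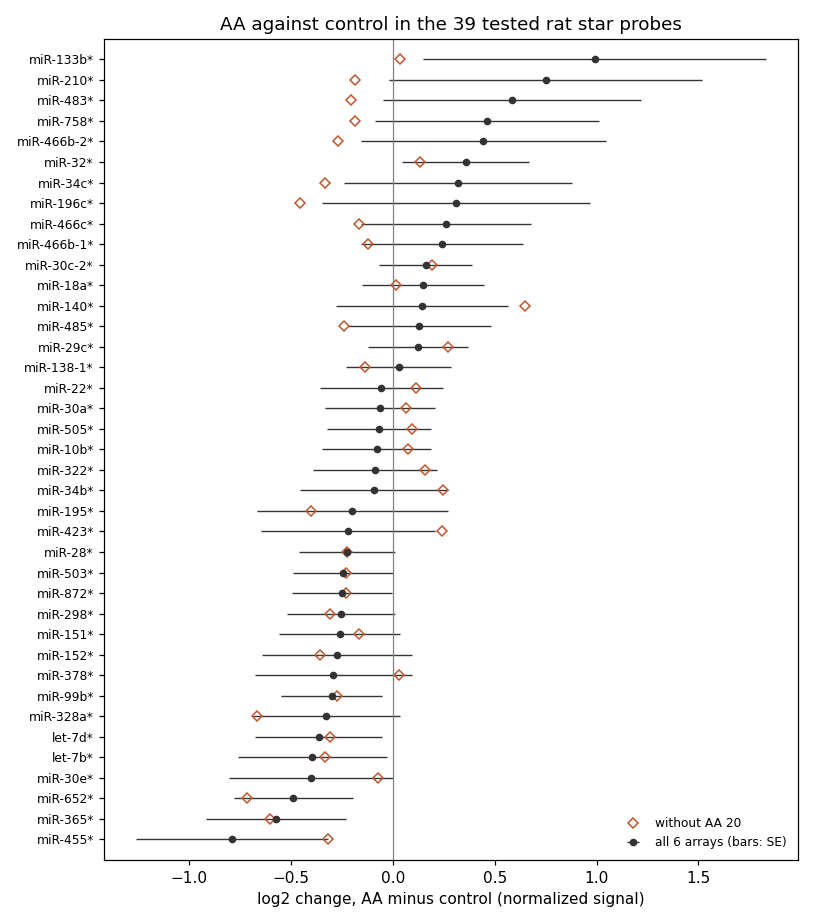
The log2 change of the normalized signal, AA minus control, with its standard error, for the 39 tested rat star probes, and the change without AA replicate 20 as open diamonds. No star passed the threshold, and the changes of miR-210*, miR-483*, miR-758* and miR-466b-2* turned from above to below 0 without that array.

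The partners serve as the other list in the same fit. Of 92 tested, 1 passed, miR-34a, with 8 at an unadjusted p under 0.05, and 52 were higher in AA with a median log2 change of 0.040. Without AA replicate 20, 72 of the 92 were higher, with a median of 0.24. Over all probes tested without it, 49.1% were higher, with a median of -0.0063. With that array kept, the groups did not overlap for 14 of the 92 partners (15.2%), against 9.98% of all tested probes. Of the 14, 10 had AA above and 4 had AA below. The miR-34a strand, a known target of p53, read 18.1, 15.8 and 16.02 in control and 424, 267 and 439.5 in AA. It rose by 2.58 on the log2 scale (SE 0.25, adjusted p = 0.00864 in limma). The call held under 10 of 18 alternative settings, and the adjusted p was 0.0787 to 0.133 without any 1 array other than AA replicate 20, and 0.00343 without that array. With cyclic loess the adjusted p in limma was 0.240, with median scaling 0.994 and without normalization 0.991.

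The star of the same hairpin did not come into view. In deposited intensity miR-34a* read 0.0302, 0.0311 and 5.06 in control and 3.90, 0.959 and 0.0163 in AA, and a probe for the same strand named for mouse had no value over 5.36. It never reached 32 and so was not tested. The log2 ratio of star to partner was at most -3.73, -3.06 and -3.78 in the AA rats. The related stars miR-34b* and miR-34c* were detected on 3 and 6 arrays, with a change of -0.092 (SE 0.36) and 0.32 (SE 0.56), or 0.25 and -0.34 without AA replicate 20. In miR-34b* the values were 17.3, 28.7 and 107 in control and 49.7, 0.00894 and 69.3 in AA, so the groups overlapped.

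Whether the strands of a pair changed unequally was tested on the log2 difference of star minus partner within each array, over 82 pairs of all species with both probes tested, 21 of them rat pairs. At the adjusted threshold 0 of the 82 pairs (0%) passed in limma. An unadjusted p under 0.05 was found for 3 (3.66%), 0 of them rat pairs. Over the pairs of all species the change ran from -1.83 to 1.25. Over the 21 rat pairs it ran from -0.60 (let-7b) to 0.84 (miR-210), with adjusted p in limma from 0.850 to 0.990. The let-7b star reached the detection threshold on control replicates 14 and 15 and on no AA array, so its AA values were under it. Of the 21 rat pairs, 7 were higher in AA, against 47.6% of all 82 pairs. A pair could enter through a strand at 32 on 1 array only. With both probes at 32 on at least 3 arrays, 4 of 10 rat pairs were higher, against 52.6% of 38 pairs. That filter was not combined with leaving out an array. Without AA replicate 20, 1 of the 21 was higher, miR-29c, against 25% of 80 pairs. The rat changes then ran from -0.89 (miR-652) to 0.28 (miR-29c). None of them passed (adjusted p from 0.672 to 0.999 in limma), and 1, miR-652, had an unadjusted p under 0.05, as did 3.75% of the 80 pairs. The miR-29c star reached the detection threshold on AA replicate 19 alone, so its other values were under it. Of all 92 tested partners, 72 were higher without AA replicate 20 (median 0.24), and of the 39 tested stars 14 were (median -0.19). With array quality weights and all 6 arrays, 3 of the 21 rat pairs were higher, against 34.1% of the 82 pairs.

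The let-7d difference, on the normalized scale, changed by -0.54 (SE 0.26, adjusted p = 0.850 in limma), and by -0.52 without AA replicate 20. The miR-210 difference was 5.40 on AA replicate 20, and the other arrays lay between 2.06 and 2.78. Its change of 0.84 (SE 0.86) became -0.24 (SE 0.33) without that array. In the other pairs measured on all arrays, the difference changed by 0.44 for miR-30a (SE 0.64), -0.30 for miR-151 (SE 0.25), -0.58 for miR-195 (SE 0.57) and 0.20 for miR-328a (SE 0.74). Without AA replicate 20 these were -0.26, -0.36, -0.82 and -0.41, so the signs for miR-30a and miR-328a turned.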

How the data were processed

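Kidney RNA of 3 control and 3 AA rats was tailed with poly(A), ligated to a tag, stained with Cy3 and hybridised to 1-colour LC Sciences arrays. The scanner files hold the median spot intensity, uncorrected. The authors deposited a linear table of normalized intensity for 5559 probes, and their methods name background subtraction, a LOWESS filter, an intensity threshold of 32 and a t-test. Detection and ratios were read from that deposited intensity. For the comparison, scanner intensity was corrected with normexp (offset 50), quantile-normalized on the log2 scale without control and empty spots, and averaged over the spots of a probe. Probes at 32 or more on at least 1 array were compared between the groups in R 4.3.3 with the limma package (3.58.1; lmFit, eBayes), and p-values were adjusted by Benjamini-Hochberg over all of them. Well above background means over the empty-spot median plus 3 robust SDs. The offset understates the changes of dim probes, and the number of arrays limits the precision. The code was tested on simulated data. Sequences were matched to RefSeq on GRCr8, and the array files name no genome build. Named were stars at 32 on all 6 arrays, stars at or above their partner on all 6 (those that reached 32), the 5 largest rises and falls, stars whose groups did not overlap, and the star of any partner past the threshold. The members and lists were chosen with earlier results of these data known. Alternatives covered background correction, normalization, filter, test, array weights, spot averaging, the deposited intensity and each replicate in turn left out.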

Additional observations from a re-analysis of the deposited data

How the results depend on the processing

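No star probe passed under any of the 18 alternatives run, leave-outs included, where the number tested ran from 35 to 39 with a filter at 32 on 1 array, and was 26 at 32 on 3 arrays and 241 without a filter. The lowest adjusted p in limma was 0.0529, for miR-652* under array quality weights. The star to partner difference gave 1 rat call without a filter, for miR-34a, with a change of -2.51, where the star was under 32 on every array and changed by 0.068. Stars at 32 on at least 1 array numbered 39, against 16 on all 6 arrays, 94 when counted above the empty-spot median plus 3 robust SDs, and 35 to 39 when an array was left out. The mean over arrays of the median log2 ratio was -3.41, against -2.57 in normexp-corrected and quantile-normalized signal, -2.45 over pairs with both strands at 32 on every array, and -3.47 to -3.30 when an array was left out.

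Signs turned as follows. Without normalization the change was -0.048 for miR-466b-2*, -0.0046 for miR-483*, -0.15 for miR-30c-2* and -0.41 for miR-758*. With median scaling it was -0.080 for miR-30c-2* and -0.34 for miR-758*, and with cyclic loess -0.12 for miR-758*. With array quality weights it was -0.074 for miR-466b-2* and -0.24 for miR-483*. The miR-328a difference was -0.087 with cyclic loess, -0.14 with median scaling and without normalization, and -1.20 with array quality weights, and the miR-30a difference -0.45 with those weights. When an array was left out, the change ran from -0.27 to 1.01 for miR-466b-2*, from -0.21 to 0.99 for miR-483*, from -0.19 to 1.45 for miR-210* and from -0.19 to 0.90 for miR-758*, each lowest without AA replicate 20. The differences ran from -0.97 to 0.086 for miR-195 (highest without control replicate 15), from -0.41 to 0.75 for miR-328a and from -0.26 to 0.80 for miR-30a (both lowest without AA replicate 20). The cause was not tested. No paired analysis was possible because the groups share no replicate numbers.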
